A study of Mus musculus with 30 samples.

Results

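Arg1, Chil3 and 8 further genes of monocytes and the macrophages that arise from them (Ly6c2, Plac8, F10, Ms4a4c, Ms4a6d, Ifitm6, Fcgr1 and Cd84) were followed in mouse hearts after ligation of a coronary artery. The 10 genes were chosen by name, out of 43629 genes in the deposited tables, with earlier results of these data known. The shares of all genes given below are thus a background and no test of the 10. All 10 passed the filter on low counts in every comparison, though Ly6c2 and Ifitm6 did so in some only through libraries in which they were high. The mice were wild-type C57BL/6J animals in all groups. Under isoflurane the chest was opened and the pericardium taken off on day 0, and the artery was either ligated (myocardial infarction, MI) or not (sham). RNA of the heart was sequenced at day 2, 4 or 7, with 5 libraries in each of the 6 groups. The labels name the 5 as separate samples and give no age, sex or region of the heart, and the p-values below cover only how these samples vary, which may be technical.

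Ligation kills the muscle beyond the blocked vessel, and Ly6C-high monocytes then enter the tissue from the blood and become macrophages that clear debris and take part in scar formation. Arginase 1, the product of Arg1, splits arginine into ornithine and urea, and Chil3 (Ym1) is a secreted chitinase-like protein. Both are used as marks of macrophages stimulated by interleukin 4, and both are also made by other myeloid cells. Ly6c2 encodes the surface antigen that defines classical monocytes, Plac8 a small cysteine-rich protein, F10 coagulation factor X, Ms4a4c and Ms4a6d membrane proteins with several spans, Ifitm6 a member of the interferon-induced transmembrane family, Fcgr1 the high-affinity IgG receptor CD64, and Cd84 a self-binding receptor of the SLAM family.

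The libraries held 7841930 to 14070017 counts. Values are given as CPM, the count of a gene per 1000000 counts of its library. A count of 0 allows a level of up to 0.213 to 0.383 CPM, a limit of 3 counts that covers counting error only. Transcripts of lung epithelium (Sftpc and Scgb1a1, summing to 168 to 1642 CPM) stood out in sham day 4 replicates 2 and 3, sham day 7 replicates 1, 2 and 3 and MI day 7 replicate 2, against at most 24.0 CPM in the others. MI day 7 replicate 4 held 1821 CPM of 6 skeletal muscle genes. Genes of heart muscle, the labelled tissue, summed to 35755 to 72380 CPM. Liver is another source of F10 and Arg1. A list of 8 hepatocyte genes summed to at most 12.6 CPM in any library (sham day 7 replicate 5) and to at most 2.08 CPM at days 2 and 4. The labels give the day 2 libraries another number prefix than those of days 4 and 7. Day and prefix cannot be told apart when day 2 is set against a later day, while MI and sham of each day carry the same prefix.

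All 10 genes were higher in MI than in sham hearts at day 2, at day 4 and at day 7 (edgeR, adjusted p under 0.05 over all genes tested). Of all genes tested, 24.1% were called higher at day 2, 27.5% at day 4 and 28.4% at day 7, and 22.2%, 25.2% and 26.6% lower. These shares are also the background for the gene lists below. A gene with few sham counts can pass the filter on low counts through its MI libraries alone. How many tested genes of a list were higher thus depends in part on the filter. Every gene was at least 2-fold higher at each day, which held for 6.16%, 9.94% and 12.2% of all genes. The median log2 fold change of the 10 genes was 1.99, 2.12 and 2.15, against -0.01, 0.01 and 0.01 over all genes. The 5 MI values lay above all 5 sham values for 10 genes at day 2, for 8 at day 4 (not Ly6c2 and Ifitm6) and for 6 at day 7 (not Chil3, Ly6c2, F10 and Ifitm6), as they did for 20.3%, 28.2% and 29.3% of all genes. In RNA of heart tissue, more cells of a type and more RNA per cell cannot be told apart. Without the libraries with lung transcripts all 10 genes were called at day 4, but 6 at day 7, where 2 sham and 4 MI libraries remain. The calls lost were those of Chil3, Ly6c2, F10 and Ifitm6.

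**Figure D1:**
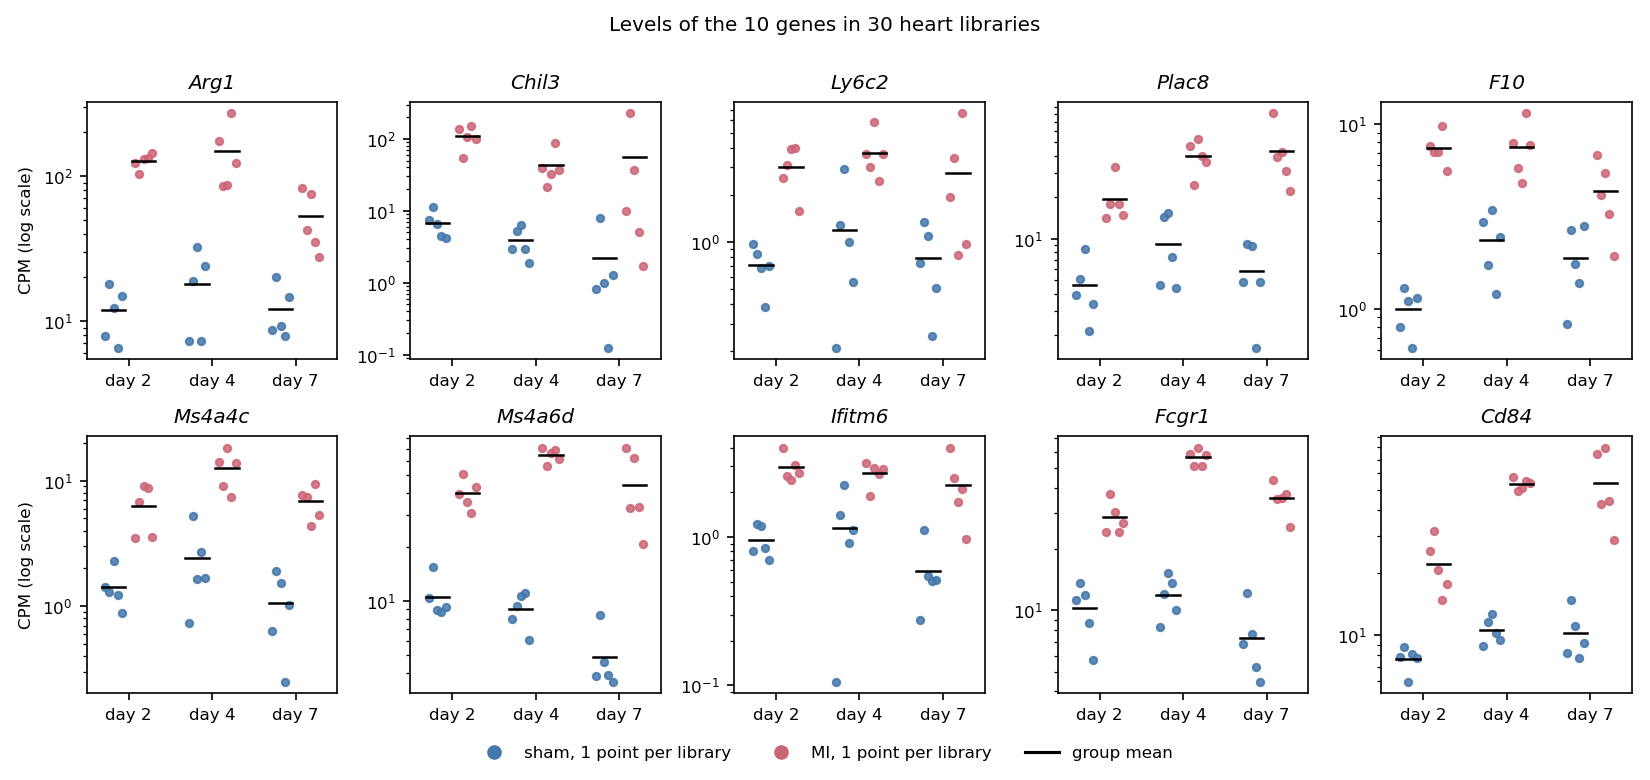
CPM of the 10 genes in the 30 libraries, on a log axis, by day and operation. Each point is a library and each bar the mean of 5. At day 2 the MI and sham points are separate for all 10 genes, and the spread among MI libraries is widest for Chil3 at day 7, from 1.73 to 227 CPM.

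**Figure D2:**
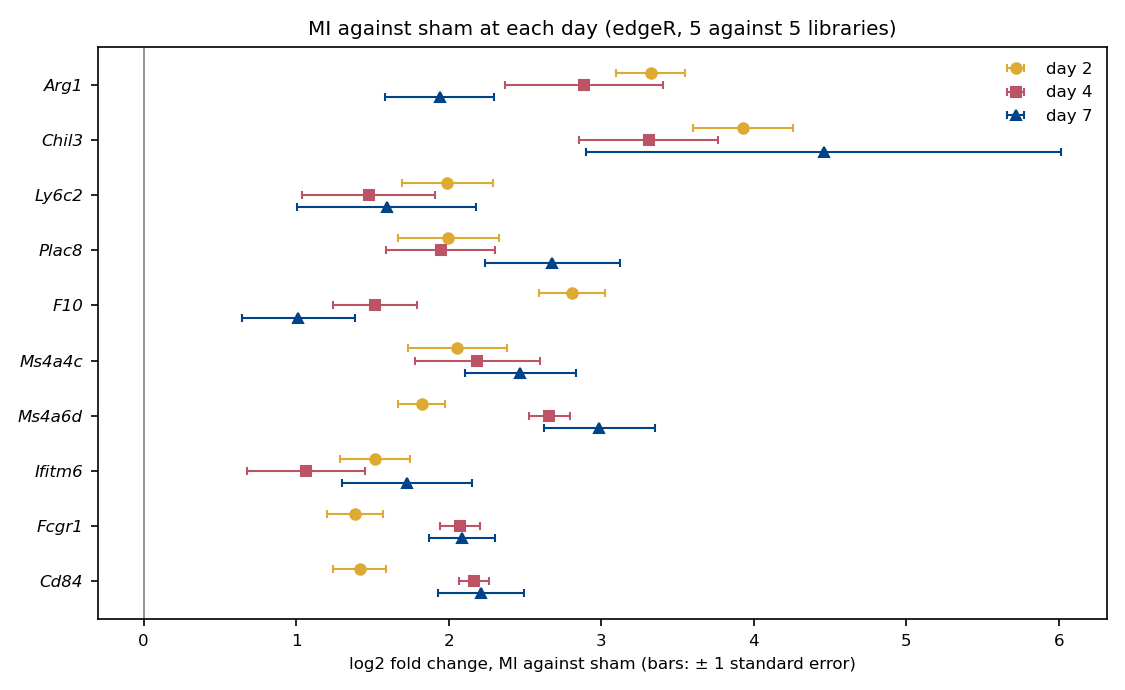
The log2 fold change of MI against sham for each gene at days 2, 4 and 7, with bars of 1 standard error. All values lie above 0, from 1.02 (F10, day 7) to 4.46 (Chil3, day 7), and the bar of Chil3 at day 7 is the widest, with a standard error of 1.56.

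Arg1 (ENSMUSG00000019987, chromosome 10, 24915221 to 24927484, minus strand, GRCm38) was the highest of the 10 genes per length in infarcted hearts at days 2 and 4. Sham libraries at day 2 read 7.91, 18.0, 12.2, 6.57 and 14.99 CPM and MI libraries 123, 103, 132, 133 and 143 CPM. The MI values were tightly grouped and all far above the sham values, 10.01-fold on average (log2 fold change 3.32 ± 0.22 SE, edgeR adjusted p = 4.44e-07). At day 4 the sham values were 7.31, 18.9, 32.4, 7.24 and 24.1 CPM and the MI values 174, 85.8, 86.4, 271 and 124 CPM. The groups stayed apart, with replicate 4 of the MI group standing highest, and the fold change was 7.39 (log2 2.88 ± 0.52 SE, edgeR adjusted p = 0.00148). At day 7 sham hearts read 8.70, 20.0, 9.24, 7.91 and 14.5 CPM and MI hearts 82.9, 42.2, 74.9, 35.3 and 27.8 CPM, 3.84-fold higher (edgeR adjusted p = 0.00079). The lowest MI value at day 7 thus lay only a little above the highest sham value. The mean MI level was 127 ± 14.9 CPM at day 2, 148 ± 77.4 CPM at day 4 and 52.6 ± 24.7 CPM at day 7 (SD, n = 5), and that of sham hearts 11.9 ± 4.76, 18.0 ± 10.9 and 12.1 ± 5.12 CPM (SD, n = 5).

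Of 22 other genes of arginine, nitric oxide and polyamine metabolism, 13 of 21 tested were higher and 4 lower at day 2, 14 and 3 of 20 at day 4, and 12 and 5 of 20 at day 7 (median log2 fold change 0.48, 0.73 and 0.53). Odc1, which turns ornithine into putrescine, averaged 125 ± 12.9 against 56.4 ± 4.43 CPM at day 2 (SD, n = 5), 2.08-fold higher, and was 1.75-fold and 1.45-fold higher at days 4 and 7 (edgeR adjusted p = 6.97e-07, 2.22e-05 and 0.000756). Azin1, whose product relieves the inhibition of ornithine decarboxylase, was 1.97-, 1.60- and 1.37-fold higher (edgeR adjusted p of at most 0.000647). Oat, which moves ornithine toward proline and glutamate, was lower at each day, with log2 fold changes of -0.49, -0.52 and -0.43. Ass1, an enzyme that rebuilds arginine from citrulline, was 2.36-, 3.66- and 2.99-fold higher, though at no more than 1.73 CPM on average. Ddah1, which breaks down inhibitors of nitric oxide synthase, went from 1.67-fold at day 2 to 7.51-fold higher at day 7. Arg2, the mitochondrial arginase, reached 3.07 CPM at most in any library, against 6.57 to 271 CPM for Arg1, and its coding sequence matched that of Arg1 in 68.6% of the 550 aligned bases.

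Chil3 (ENSMUSG00000040809, chromosome 3, 106147554 to 106167564, minus strand) had the largest fold change of the 10 genes at days 2 and 4. Its value was also the largest at day 7, but there it rested on 1 library (log2 2.44 in place of 4.46 without MI replicate 2). At day 2 sham libraries read 7.46, 11.3, 6.49, 4.48 and 4.14 CPM and MI libraries 139, 54.9, 107, 149.8 and 99.4 CPM. Every MI value was several times the highest sham value, and the fold change was 15.2 (log2 3.93 ± 0.33 SE, edgeR adjusted p = 3.94e-06). At day 4 the values were 2.97, 5.27, 6.36, 2.92 and 1.89 CPM in sham and 39.3, 21.2, 32.1, 86.6 and 37.2 CPM in MI hearts, 9.92-fold higher (log2 3.31 ± 0.46 SE, edgeR adjusted p = 0.000213). At day 7 sham hearts read 0.824, 7.85, 0.990, 0.126 and 1.28 CPM and MI hearts 9.89, 227, 37.3, 5.04 and 1.73 CPM. The groups overlapped at this day: replicate 2 stood highest in both, and these are the libraries with 392 and 1642 CPM of the lung transcripts. The value of 0.126 CPM was 1 count. The call at day 7 (log2 fold change 4.46 ± 1.56 SE, edgeR adjusted p = 0.0384) was lost without MI day 7 replicate 2 (log2 2.44, adjusted p = 0.0908) and without all lung libraries (4.02, adjusted p = 0.137). Leaving out 1 library of day 7, it was also lost for sham replicates 1, 3, 4 and 5 and for MI replicate 3 (adjusted p 0.0575 to 0.0841), and with limma voom (adjusted p = 0.126).

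Neutrophil genes moved with Chil3, and their part in its change was not tested. All 8 tested of 12 neutrophil genes were higher at day 2, all 7 at day 4 and 3 of 5 at day 7, with median log2 fold changes of 4.19, 3.58 and 3.01. Their summed level was 11.99 to 22.8 CPM in sham and 230.3 to 800.1 CPM in MI libraries at day 2, 7.10 to 89.4 and 47.9 to 289 CPM at day 4, and 4.21 to 29.9 and 24.8 to 277 CPM at day 7. Ly6g, which defines neutrophils, had no count in sham libraries of days 4 and 7, and Camp none in those of day 2. A gene with so few sham counts could be tested only through its MI libraries. The number higher among the tested neutrophil genes was thus partly fixed by the filter on low counts. At day 7 the order of the MI libraries differed between the measures. Replicate 2, with 227 CPM of Chil3, had 62.2 CPM of the neutrophil genes, whereas replicate 1 had 277 CPM of these and 9.89 CPM of Chil3. Replicate 2 also had the highest Chil1 (72.3 CPM), Ear2 (8.30 CPM, an eosinophil and alveolar macrophage ribonuclease) and Chil4 (1.56 CPM) of all libraries. The 8 alveolar macrophage genes summed to 37.4 CPM there and to 12.3 to 27.8 CPM in the other 29 libraries. In sham hearts at day 2 this sum was mostly Car4, which averaged 21.8 CPM, against 1.36 CPM for Plet1 and 0.373 CPM for Marco. The sum is thus no measure of alveolar macrophages alone. Marco, of the same list, read 4.46 CPM in MI day 7 replicate 2, below replicates 1, 3 and 4 of that group (5.68 CPM or more). The share of lung macrophages in the Chil3 of replicate 2 was not tested.

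**Figure D3:**
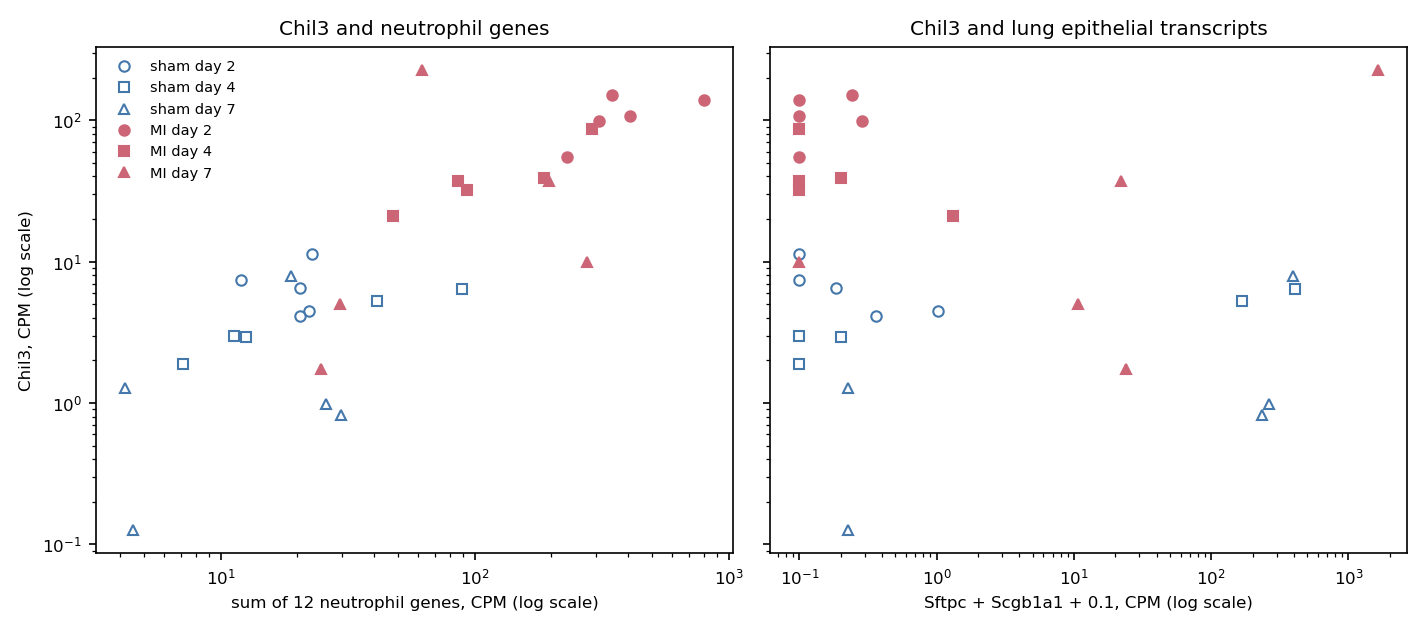
Chil3 in each library against the summed level of 12 neutrophil genes (left) and against Sftpc plus Scgb1a1, with 0.1 CPM added so that zeros can be drawn (right), all on log axes. Each symbol is a library. MI day 7 replicate 2 is the triangle at the top of both panels, with 227 CPM of Chil3, 62.2 CPM of the neutrophil genes and 1642 CPM of the lung transcripts.

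Chil4 is a near copy of Chil3, with 95.4% identity over 1194 coding bases, and reads from the stretches they share could be assigned to either. It read at most 0.412 CPM outside that library, against 0.126 to 227 CPM for Chil3. Of the 3 chitinase family genes tested beside Chil3, 1 was higher at each day: Chil1 at day 2 (3.59-fold, edgeR adjusted p = 0.00136) and Ctbs, a lysosomal chitobiase, at days 4 and 7 (1.43- and 1.496-fold). Among 14 tested genes of alternative macrophage activation, 5 were higher and 3 lower at day 2, 7 and 3 at day 4, and 9 and 1 at day 7. Over all genes, 24.1% were called higher and 22.2% lower at day 2, 27.5% and 25.2% at day 4, and 28.4% and 26.6% at day 7. Egr2, a transcription factor induced by interleukin 4, was 3.32-, 5.42- and 4.40-fold higher. Mrc1, the mannose receptor, stood at 53.8 against 49.7 CPM at day 2 (edgeR adjusted p = 0.908) and was 1.80- and 2.33-fold higher at days 4 and 7. Retnla (Fizz1), commonly read together with Arg1 and Chil3, was lower at day 2 (1.15 ± 0.452 against 2.05 ± 0.812 CPM, SD, n = 5) and at day 4 (0.693 ± 0.225 against 5.61 ± 4.16 CPM, SD, n = 5). It stood at log2 -0.95 (edgeR adjusted p = 0.0223) and -3.14 (0.00039), against 3.32 and 2.88 for Arg1 and 3.93 and 3.31 for Chil3. The 6 libraries with lung transcripts had the highest Retnla values of their groups, and without them the day 4 value was -2.22 (edgeR adjusted p = 0.000446). At day 7 Retnla averaged 16.8 ± 27.7 in MI and 9.55 ± 5.30 CPM in sham hearts (SD, n = 5; edgeR adjusted p = 0.65).

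F10 (ENSMUSG00000031444, chromosome 8, 13037308 to 13056676, plus strand) was higher after MI by a factor that was smaller at day 7 than at day 2. At day 2 the sham libraries read 0.800, 1.29, 1.11, 0.618 and 1.15 CPM and the MI libraries 7.61, 7.09, 7.11, 9.74 and 5.59 CPM. These groups were far apart, by 6.996-fold (log2 2.81 ± 0.22 SE, edgeR adjusted p = 2.96e-07). At day 4 they read 2.97, 1.72, 3.42, 1.21 and 2.44 CPM in sham and 7.96, 5.83, 4.80, 11.5 and 7.72 CPM in MI hearts, 2.86-fold higher (edgeR adjusted p = 0.000312). At day 7 the values were 0.824, 2.69, 1.76, 1.38 and 2.81 CPM in sham and 6.82, 4.15, 5.45, 3.28 and 1.94 CPM in MI hearts, and MI replicate 5 fell among the sham values. The highest sham value was that of replicate 5, the library with 12.6 CPM of the hepatocyte genes. The share of liver in these values was not tested. The fold change was 2.02 (log2 1.02 ± 0.37 SE, edgeR adjusted p = 0.0332). That call was lost without the lung libraries (log2 0.81, adjusted p = 0.263) and without any of sham day 7 replicates 1, 3 and 4 and MI day 7 replicates 1 and 3 (adjusted p 0.0627 to 0.0861).

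Factor X is activated by factor VII bound to tissue factor and in turn makes thrombin. Of 17 other genes of this pathway, 5 of 12 tested were higher and 4 lower at day 2, 6 and 3 of 13 at day 4, and 7 and 2 of 13 at day 7. F7, which encodes factor VII, was 4.54-, 3.40- and 2.497-fold higher (edgeR adjusted p = 0.000654, 5.35e-05 and 0.0126), at 1.55 ± 0.493, 5.29 ± 1.25 and 2.41 ± 1.16 CPM in MI hearts (SD, n = 5). Tfpi, the inhibitor of the tissue factor complex, was lower at each day (log2 fold change -0.40, -0.62 and -0.55). The related inhibitor Tfpi2 was 2.43-, 3.21- and 2.55-fold higher. Thbd, the thrombin receptor thrombomodulin, was lower at days 2 and 4 (log2 -0.51 and -0.48) and had a log2 fold change of -0.29 at day 7 (edgeR adjusted p = 0.0521).

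Ly6c2 (ENSMUSG00000022584, chromosome 15, 75108158 to 75111970, minus strand) had few reads, 2 to 79 counts per library, beside an abundant near copy, Ly6c1, which is expressed by endothelium. Bases 1 to 270 of the 393 coding bases of both, from the GENCODE M21 transcripts, are shown because their likeness bears on every Ly6c2 value. Capitals mark the bases at which they differ, 7 of 9 over the whole coding sequence.
Ly6c2: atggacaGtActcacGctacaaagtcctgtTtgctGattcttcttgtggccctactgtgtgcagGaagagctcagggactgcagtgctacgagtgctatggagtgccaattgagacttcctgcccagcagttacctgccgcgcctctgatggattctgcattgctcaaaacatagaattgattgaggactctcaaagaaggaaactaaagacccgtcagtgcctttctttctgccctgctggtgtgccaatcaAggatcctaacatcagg
Ly6c1: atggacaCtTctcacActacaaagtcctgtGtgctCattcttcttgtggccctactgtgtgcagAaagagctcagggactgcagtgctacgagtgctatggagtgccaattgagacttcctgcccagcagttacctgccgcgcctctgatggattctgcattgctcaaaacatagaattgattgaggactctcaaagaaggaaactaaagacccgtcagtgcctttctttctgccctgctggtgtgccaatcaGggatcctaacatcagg
They are 97.7% identical, and the longest run without a difference is 188 bases, more than the 150 bases of a single read. Reads were paired, and only coding bases were compared, so that the share of read pairs that fit both genes is not known. How reads that fit both genes were assigned is not given in the sources used here, so that the level of Ly6c2 is uncertain.

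Sham libraries read 0.386 to 0.977 CPM of Ly6c2 at day 2 (median 0.705), 0.212 to 2.94 at day 4 (1.01) and 0.251 to 1.35 at day 7 (0.733). MI libraries read 1.58 to 3.98 (median 3.12), 2.45 to 5.84 (3.64) and 0.825 to 6.64 CPM (1.93). The groups were separate at day 2, overlapped at day 4 only through sham replicate 3, and overlapped at day 7. Ly6c2 was 3.98-, 2.78- and 3.02-fold higher after MI (edgeR adjusted p = 8.21e-05, 0.0113 and 0.0339). The day 7 call was lost without MI day 7 replicate 4, the library with skeletal muscle transcripts and the highest Ly6c2 (log2 0.95 in place of 1.59, adjusted p = 0.132), and without the lung libraries (2.49, adjusted p = 0.0941). Leaving out 1 library ended it too for sham day 7 replicates 1, 4 and 5 and for MI day 7 replicate 2 (adjusted p 0.0614 to 0.0752). Ly6c1 read 38.4 to 121 CPM over the 30 libraries. It was slightly lower after MI at day 2 (log2 -0.24 ± 0.08 SE, edgeR adjusted p = 0.0285), with log2 values of -0.24 and -0.18 at days 4 and 7 (adjusted p = 0.12 and 0.324). Ly6c1 averaged 95.8 CPM in MI hearts at day 2 and 50.8 CPM at day 4.

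**Figure D4:**
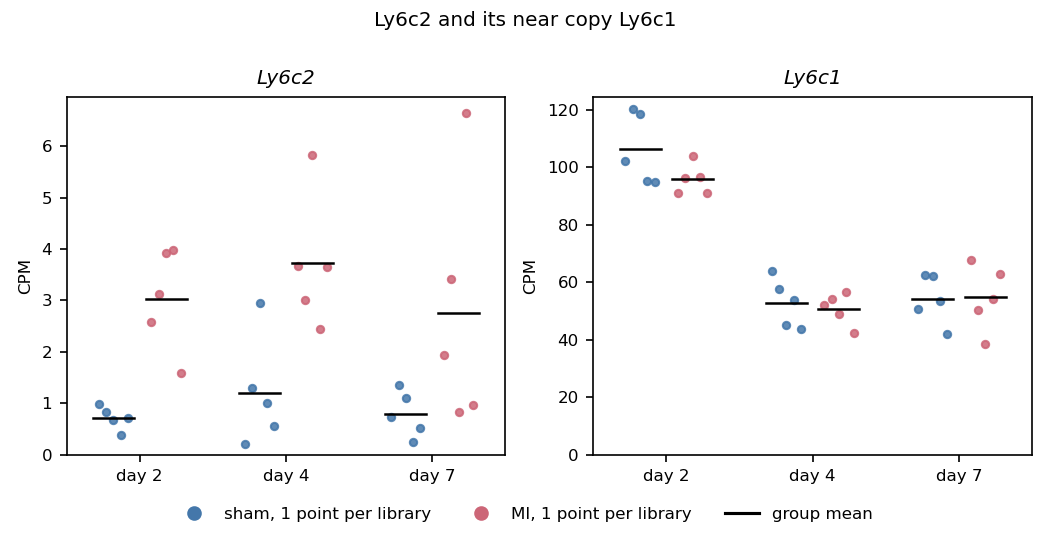
CPM of Ly6c2 (left) and its near copy Ly6c1 (right) in each library, on linear axes from 0, with the mean of 5 libraries as a bar. Ly6c2 stays at or below 6.64 CPM, and Ly6c1 lies between 38.4 and 121 CPM, highest at day 2 in both arms.

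Plac8, Ms4a4c and Ifitm6 were, with Ly6c2, the other genes used to mark classical monocytes. Plac8 (ENSMUSG00000029322, chromosome 5, 100553725 to 100572245) averaged 19.6 ± 7.75, 40.1 ± 10.8 and 43.2 ± 22.7 CPM in MI hearts at days 2, 4 and 7, against 4.59 ± 2.40, 9.23 ± 5.27 and 5.89 ± 3.17 CPM in sham hearts (SD, n = 5). It was 3.99-, 3.86- and 6.41-fold higher with no overlap of the groups (edgeR adjusted p = 0.000427, 0.00116 and 0.000455). Its values at day 7 in MI hearts, 81.2, 39.3, 42.8, 30.8 and 22.1 CPM, all exceeded the highest sham value of 9.19 CPM. Ms4a4c (ENSMUSG00000024675, chromosome 19, 11404770 to 11427246) stood at 6.30 ± 2.69, 12.6 ± 4.37 and 6.85 ± 2.02 CPM in MI and 1.43 ± 0.530, 2.41 ± 1.74 and 1.07 ± 0.666 CPM in sham hearts (SD, n = 5), 4.16-, 4.56- and 5.54-fold higher. The groups did not overlap at any day (edgeR adjusted p = 0.000148, 0.000814 and 8.42e-05).

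Ifitm6 (ENSMUSG00000059108, chromosome 7, 141015699 to 141017924) had 1 to 43 counts per library. Sham libraries read 0.705 to 1.22, 0.106 to 2.24 and 0.275 to 1.12 CPM and MI libraries 2.44 to 4.01, 1.88 to 3.16 and 0.971 to 3.98 CPM at days 2, 4 and 7. It was 2.87-, 2.09- and 3.31-fold higher (edgeR adjusted p = 8.58e-05, 0.0316 and 0.00378), with overlap at days 4 and 7. The call at day 4 was lost when sham replicate 4 or 5, or MI replicate 1, 3, 4 or 5 of that day was left out (adjusted p 0.0509 to 0.0706). The call at day 7 was lost without the lung libraries (log2 1.84, adjusted p = 0.0587). Of the other Ifitm genes, the broadly expressed Ifitm2 and Ifitm3 were 1.27- to 1.58-fold higher at all 3 days and Ifitm10 2.67- to 3.36-fold. Ifitm1 was 3.72-fold higher at day 2 and stood at log2 0.47 (adjusted p = 0.32) at day 4 and 0.40 (0.373) at day 7.

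Ms4a6d, Fcgr1 and Cd84, which macrophages also express, were higher at each day with no overlap between MI and sham hearts. Ms4a6d (ENSMUSG00000024679, chromosome 19, 11586604 to 11604849) read 10.4, 15.5, 8.88, 8.65 and 9.26 CPM in sham and 39.2, 50.8, 35.3, 31.0 and 43.1 CPM in MI hearts at day 2. At day 4 it read 7.95, 9.35, 10.7, 11.2 and 6.11 against 71.2, 56.4, 66.3, 68.8 and 61.6 CPM, and at day 7 3.85, 8.41, 4.62, 3.89 and 3.57 against 70.9, 32.7, 62.2, 33.4 and 20.8 CPM. The groups stayed apart at each day. MI hearts were lower on average at day 7 than at day 4, and so were sham hearts. The fold change was 3.54, 6.32 and 7.93 (log2 1.82 ± 0.16, 2.66 ± 0.14 and 2.99 ± 0.37 SE; edgeR adjusted p = 8.16e-07, 9.83e-09 and 3.99e-05).

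Fcgr1 (ENSMUSG00000015947, chromosome 3, 96282909 to 96293969) averaged 28.6 ± 5.45, 56.4 ± 5.14 and 35.5 ± 6.37 CPM in MI hearts and 10.2 ± 3.10, 11.9 ± 2.81 and 7.31 ± 3.03 CPM in sham hearts (SD, n = 5). This was 2.62-, 4.21- and 4.25-fold higher (edgeR adjusted p = 3.78e-05, 4.99e-08 and 8.65e-06). Cd84 (ENSMUSG00000038147, chromosome 1, 171839697 to 171890718) had the smallest SD of the 10 genes relative to its mean in MI hearts at day 4 (6.17%), with values of 49.6 to 57.8 CPM, against 8.90 to 12.7 CPM in sham hearts. It averaged 22.1 ± 6.72, 53.6 ± 3.31 and 53.9 ± 22.03 CPM after MI (SD, n = 5) and was 2.67-, 4.48- and 4.63-fold higher (edgeR adjusted p = 1.44e-05, 3.97e-09 and 3.7e-05).

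Most relatives of these receptors that could be tested were higher as well. Of the other Ms4a genes, 6 of 7 tested were higher at day 2, 5 of 8 at day 4 and 7 of 8 at day 7. The macrophage gene Ms4a7 had the largest of these changes at day 7, 2.17-, 7.02- and 11.2-fold over the 3 days. Ms4a6b, 80.6% identical to Ms4a6d in its coding sequence, was 2.51-, 3.53- and 5.18-fold higher, and Ms4a6c 2.43-, 4.53- and 4.84-fold. The closest copy of Ms4a4c is Ms4a4b, with 91.7% identity over 678 coding bases. It read 0.106 to 3.36 CPM over the 30 libraries and did not pass the filter on low counts in the comparisons of MI with sham, and reads from the stretches it shares with Ms4a4c could be assigned to either. Ms4a4d, 85.7% identical to Ms4a4c, stood at log2 -0.17 (adjusted p = 0.392), -0.28 (0.102) and 0.21 (0.206). Among the 5 other Fc gamma receptor genes, 4 were higher at each day, with Fcgr4 at 5.15-, 3.93- and 5.29-fold and the signalling chain Fcer1g at 2.46-, 4.001- and 4.33-fold. The neonatal receptor Fcgrt, which is also made by endothelium, was lower at days 2 and 4 (log2 -0.46 and -0.23). In the SLAM family and its adaptors, 6 of 7 tested genes were higher at day 2, 9 of 10 at day 4 and 8 of 10 at day 7. Among them were the receptor Ly9 (3.01-, 4.77- and 4.74-fold) and the phosphatases Inpp5d (1.998-, 2.82- and 3.10-fold) and Ptpn6 (2.52-, 2.80- and 3.33-fold).

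The design also asks whether the MI effect differed between days, tested as an interaction over all 30 libraries. Between days 2 and 7 the effect of F10 became smaller, by -1.76 ± 0.46 SE on the log2 scale (edgeR adjusted p = 0.00767), and that of Ms4a6d larger, by 1.19 ± 0.37 SE (adjusted p = 0.0253). These 2 edgeR calls among 10 genes compare with 19.2% of all genes called in either direction. DESeq2 called 3 genes, Cd84 besides these (adjusted p = 0.0467), and limma voom 5, with Cd84 (0.0492), Arg1 (-1.74, 0.00974) and Fcgr1 (0.0468). The Ms4a6d call was lost on leaving out sham day 2 replicate 2, either of sham day 7 replicates 1 and 5, or either of MI day 7 replicates 1 and 3 (log2 0.93 to 1.11, adjusted p 0.0511 to 0.0665). Arg1 had a difference of -1.35 ± 0.57 (adjusted p = 0.0989), Cd84 0.82 ± 0.31 (0.0593) and Fcgr1 0.73 ± 0.28 (0.0687), which did not pass in edgeR. With only the 4 groups compared in the edgeR fit Arg1 passed (adjusted p = 0.0404) and Ms4a6d did not (0.0538). Between days 2 and 4 edgeR called none of the 10 genes, where it called 4.8% of all genes by adjusted p. An unadjusted p under 0.05 was found for F10, Ms4a6d, Fcgr1 and Cd84. The share of all genes at that looser threshold is not given here, so that this count of 4 has no background. DESeq2 called 1 gene there and limma voom 2. Between days 4 and 7 edgeR, DESeq2 and limma voom called none of the 10, where edgeR called 1.02% of all genes by adjusted p. None of the 10 had an unadjusted p under 0.05 there.

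Within the infarcted hearts, 5 genes were higher at day 4 than at day 2, where 24% of all genes were called higher. Cd84 rose 2.28-fold (log2 1.19 ± 0.20 SE, edgeR adjusted p = 2.53e-05) and Fcgr1 1.84-fold (adjusted p = 0.000234), and the MI libraries of the 2 days did not overlap for Cd84, Fcgr1 and Ms4a6d, as for 20.2% of all genes in this direction. Plac8 (1.91-fold, adjusted p = 0.0423), Ms4a4c (1.85-fold, 0.0346) and Ms4a6d (1.52-fold, 0.0332) were closer to the threshold. The Plac8 call was lost on leaving out any of MI replicates 1, 2, 4 and 5 of day 2 and 1, 3, 4 and 5 of day 4 (adjusted p 0.057 to 0.105). The Ms4a4c call was lost on leaving out any of MI replicates 1, 2 and 5 of day 2 and 1, 3 and 5 of day 4 (0.0584 to 0.121), and that of Ms4a6d on leaving out any of 1, 3 and 4 of day 2 and 1, 3 and 4 of day 4 (0.0576 to 0.0913). The Plac8 call was also lost with DESeq2 (adjusted p = 0.061). Chil3 had a log2 difference of -1.46 ± 0.74 SE (adjusted p = 0.111), and it was called lower at day 4 by limma voom (-1.64, adjusted p = 0.0259) and with only these 10 libraries in the edgeR fit (-1.47, 0.0136).

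From day 4 to day 7 Arg1 fell by 1.49 ± 0.38 SE on the log2 scale (edgeR adjusted p = 0.0116) and Fcgr1 by 0.67 ± 0.18 SE (adjusted p = 0.0147), where 6.29% of all genes were called lower. The Arg1 call was lost when only these 10 libraries entered the fit (adjusted p = 0.0619). No Arg1 value of the day 7 MI libraries reached the lowest of day 4, which was 85.8 CPM. F10 had a log2 difference of -0.81 (adjusted p = 0.055), and was called lower by DESeq2 (0.0345) and limma voom (0.0207). Limma voom also called Ms4a4c (0.0475) and Ms4a6d (0.000474) lower. Cd84 had a log2 difference of 0.01 (edgeR adjusted p = 0.984). In sham hearts F10 rose 2.29-fold from day 2 to day 4 (log2 1.197 ± 0.36 SE, edgeR adjusted p = 0.0133), 1 of 10 genes against 11.7% of all genes called higher, and the call was lost without the lung libraries (log2 1.14, adjusted p = 0.0677). From day 4 to day 7 none of the 10 was called in sham hearts by edgeR or limma voom and 1 by DESeq2 (Ms4a6d). By adjusted p, edgeR called 0.122% of all genes. An unadjusted p under 0.05 was found for 4 of the 10, a threshold at which the share of all genes is not given here. All 10 genes had lower fitted levels in sham hearts at day 7 than at day 4, with log2 differences from -0.06 to -1.19.

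The sham libraries were not alike. Sham day 4 replicate 3 was the highest of its group for 8 of the 10 genes and sham day 7 replicate 2 for 9, and both held lung transcripts (410 and 392 CPM). Sham day 2 replicate 2, with no count of Sftpc or Scgb1a1, was the highest of its group for 7. Among MI libraries, day 7 replicate 1 was the highest for 6 genes and replicate 5 the lowest for 8, while the summed level of 10 general macrophage and leukocyte genes was 1192 and 722 CPM in them. The part of lung or blood cells in the sham levels was not tested.

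To see which of the 10 genes changed by another amount than macrophages and leukocytes at large, each was set against 10 general genes of these cells (Csf1r, Adgre1, Cd68, Ptprc, Itgam, Tyrobp, Laptm5, Aif1, Mpeg1 and Fcer1g) in the same library. Of these, 9 were higher after MI at day 2 and all 10 at days 4 and 7. The measure is the log2 of CPM plus 0.5 minus the mean of the same over the 10 reference genes. The 0.5 CPM added shrinks the differences of genes near that level, such as Ly6c2, Ifitm6 and F10, more than those of the reference genes. Values of these genes against the reference are thus too low. Groups were compared with exact permutation tests, 2-sided, adjusted over 30 tests, and 0.00794 is the smallest p that 5 against 5 libraries allow. No share of all genes is given for this measure, so that the number of the 10 that passed or did not overlap has no background. At day 2 Chil3 exceeded the reference by 2.73 more in MI than in sham hearts, Arg1 by 2.24, F10 by 1.21 and Ms4a6d by 0.69 (adjusted exact permutation p = 0.0298 for each). The other 6 genes differed by 0.05 to 0.83 and did not pass. At day 4 Chil3 (1.33), Ms4a6d (0.86) and Cd84 (0.36) passed, each with all 5 MI values above all sham values (adjusted exact permutation p = 0.0298). Arg1 stood at 1.17 (adjusted exact permutation p = 0.108). The day 2 call of F10 was lost with a pseudocount of 2 CPM (0.51, adjusted exact permutation p = 0.0893). With the median of the reference genes in place of their mean, the day 4 calls of Ms4a6d and Cd84 were lost (adjusted exact permutation p = 0.0595 and 0.0916).

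At day 7 Ms4a6d was the only one of the 10 called above the reference after MI (0.89, adjusted exact permutation p = 0.0298), and F10 (-1.09) and Ifitm6 (-0.80) were below it (adjusted exact permutation p = 0.0476 for both). These 2 lower calls were lost without any of sham day 7 replicates 2 to 5 or MI day 7 replicates 2 to 5 (adjusted exact permutation p 0.0649 to 0.0952), where 4 against 5 libraries allow no p below 0.0159, and with a pseudocount of 0.1 CPM. The Arg1 difference at day 7 was -0.04 (adjusted exact permutation p = 0.857). Fcgr1 differed by 0.28, 0.30 and 0.18 over the 3 days and did not pass at any.

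**Figure D5:**
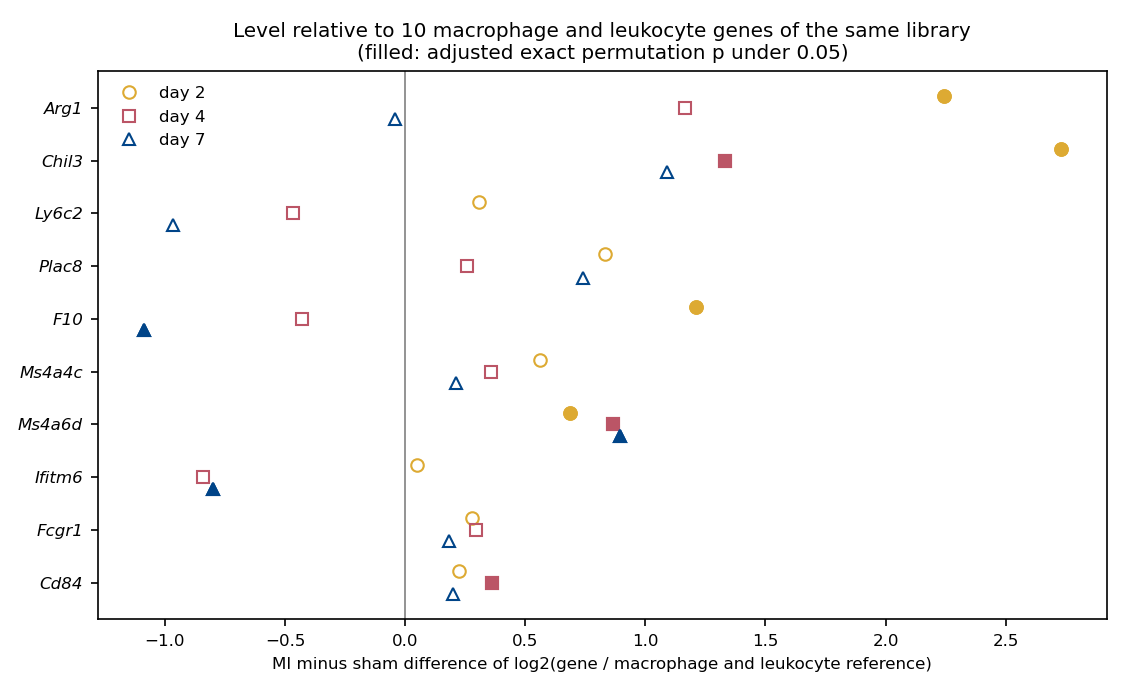
Difference between MI and sham hearts in the level of each gene relative to 10 general macrophage and leukocyte genes of the same library, on the log2 scale. Symbols are days, filled where the adjusted exact permutation p was under 0.05. Arg1 runs from 2.24 at day 2 to -0.04 at day 7, whereas Ms4a6d stays between 0.69 and 0.89.

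Other genes of classical monocytes were mostly higher too. Of 19 tested genes of classical monocytes, 16 were higher and 1 lower at day 2 and at day 4, and 13 were higher and none lower at day 7 (median log2 fold change 1.23, 1.21 and 1.65). The C-type lectins Clec4d and Clec4e were 7.36- and 10.1-fold higher at day 2, and 12.8- and 9.89-fold at day 4. Thbs1 (4.04-, 7.02- and 12.01-fold) and Fn1 (2.07-, 3.87- and 8.13-fold), matrix genes that fibroblasts express as well, were higher at each day. Of 10 tested genes of non-classical monocytes, 3 were higher and 1 lower at day 2, where 24.1% of all genes were called higher and 22.2% lower. At day 4 the counts were 7 and 0, and at day 7 they were 5 and 0. Genes that recruit monocytes were higher in 9 of 13, 11 of 13 and 10 of 11 cases, and the chemokine Ccl2 was 3.87-, 7.41- and 4.09-fold higher. Of 8 genes of resident heart macrophages, 1 was higher and none lower at day 2, 2 and 1 at day 4, and 4 and 0 at day 7. Over all genes, 24.1%, 27.5% and 28.4% were called higher. The 2 higher at day 4 were Marcksl1 (4.23-fold) and Mrc1 (1.80-fold), which is also on the alternative activation list. At day 7 they were 3.66- and 2.33-fold higher, and Cbr2 stood at log2 -0.01 and 0.06 at days 4 and 7. Timd4, a defining gene of the resident cells, stood at log2 -0.53 (adjusted p = 0.0853), -1.03 (0.00146, the only one to pass) and -0.46 (0.136).

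The genes most like each of the 10 in pattern were sought among 14605 genes that averaged 1 CPM or more, by the root mean square difference of centred log2 values over the 30 libraries. For Arg1 these were Fgr (0.53), Slc16a3 (0.56) and AA467197 (0.59). For Chil3 they were Cxcr2 (1.03), Csf3r (1.13) and Il1r2 (1.18), and these distances were the largest of the 10 genes. Chil3 itself also varied most. The root mean square of its own centred values was 2.295, against 0.761 (Ifitm6) to 1.62 (Arg1) for the others. Its larger distances therefore do not show that it is matched less well. The nearest gene was Itgb7 for Ly6c2 (0.48), Cd300c2 for Plac8 (0.51), Itgam for F10 (0.39), Cxcl10 for Ms4a4c (0.48) and Cd68 for Ms4a6d (0.35). It was Sema4a for Ifitm6 (0.38), Ms4a6c for Fcgr1 (0.29) and Otulinl for Cd84 (0.22). Among the 10 themselves Ms4a6d and Fcgr1 were closest (0.44) and Chil3 and Cd84 farthest apart (1.87). All 30 libraries enter each distance, so that the shared difference between MI and sham hearts contributes to it.

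Per length of the transcript, as CPM per kilobase, Arg1 (85.9) and Chil3 (71.5) led the 10 genes in MI hearts at day 2, followed by Ms4a6d (28.1) and Plac8 (26.3). At day 4 the order was Arg1 (100.3), Plac8 (53.9), Ms4a6d (45.7) and Chil3 (28.1). At day 7 Plac8 (58.1) led in MI hearts, before Chil3 (36.5), Arg1 (35.6) and Ms4a6d (31.0), where the Chil3 mean rests largely on replicate 2. Ly6c2, Ifitm6, F10 and Ms4a4c stood at or below 7.30 CPM per kilobase in every group. In sham hearts Arg1 led at days 2 and 7 (8.07 and 8.17) and Plac8 at day 4 (12.4).

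The bases before the transcription start were read for 8 of the 10 genes from RefSeq (GRCm38.p6) and searched for 8 motifs. The windows of Chil3, Fcgr1 and Ly6c2 were picked for display because they hold STAT-type, ETS or PU.1 matches. That of Ifitm6, which holds STAT-type and ETS matches too, lies inside the annotated gene and is not shown. PU.1 is the ETS factor on which monocytes and macrophages depend, and STAT factors act downstream of interferon and interleukin receptors. In the 250 bases before the start of Chil3, capitals mark a match to the STAT-type motif TTCNNNGAA and one to the ETS core AGGAAGT on the other strand. In those of Fcgr1 they mark the same 2 motifs, and in those of Ly6c2 (the first of 2 listed starts, neither of which opens a GENCODE transcript) the PU.1 motif GAGGAAGT, which holds the ETS core. Each is written 5′ to 3′ on the strand of its gene.
Chil3, chr3:106167565-106167814, minus strand: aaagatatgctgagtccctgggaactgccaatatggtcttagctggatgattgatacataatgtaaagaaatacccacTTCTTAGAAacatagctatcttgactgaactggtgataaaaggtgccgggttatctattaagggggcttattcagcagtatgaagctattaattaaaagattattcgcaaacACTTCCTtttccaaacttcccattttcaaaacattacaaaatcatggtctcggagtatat
Fcgr1, chr3:96293970-96294219, minus strand: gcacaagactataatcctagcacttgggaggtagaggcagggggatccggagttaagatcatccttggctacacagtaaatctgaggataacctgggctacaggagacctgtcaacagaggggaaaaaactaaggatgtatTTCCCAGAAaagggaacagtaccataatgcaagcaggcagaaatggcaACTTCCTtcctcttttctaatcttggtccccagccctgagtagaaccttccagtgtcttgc
Ly6c2, chr15:75111972-75112221, minus strand: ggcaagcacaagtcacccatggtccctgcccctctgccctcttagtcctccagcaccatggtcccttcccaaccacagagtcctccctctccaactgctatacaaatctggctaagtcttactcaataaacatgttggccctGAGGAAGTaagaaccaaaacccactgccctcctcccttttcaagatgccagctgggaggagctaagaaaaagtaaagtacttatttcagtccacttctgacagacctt

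Both strands were searched, and for genes with several listed starts a match in any window was counted. The counts are thus per gene, whereas the shares are per window, with 32851 windows for 27025 genes. The STAT-type motif was found in 3 of the 8 genes (Chil3, Ifitm6 and Fcgr1) and in 7.02% of 32851 promoter windows of the same length. The ETS core was found in 4 (Chil3, Ly6c2, Ifitm6 and Fcgr1) against 7.69%, and the PU.1 motif in 1 (Ly6c2) against 2.44%. The C/EBP-type motif TTGCNNAA was found in 1 (Plac8, in a window inside the gene that opens no GENCODE transcript) against 9.56%, and the AP-1 motif TGANTCA in 1 (Cd84) against 6.75%. The NF-kB motif GGGANNNCC was found in 2 (F10 and Ms4a4c, the latter in a window inside the gene) against 15.8%. The interferon-stimulated response element was found in none of the 8 genes and in 2.98% of all windows, and the TATA box TATAAA in 1 (Ifitm6) against 12.4%. The STAT-type match of Chil3 began 172 bases before the start and that of Fcgr1 109 bases, and the ETS core matches began 60 and 61 bases before it. A match shows only that these letters stand in the window, and no binding was measured.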

How the data were processed

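Raw counts per gene were deposited for 30 libraries, 43629 Ensembl genes each. The authors made them with bcl2fastq 2.20.0 and featureCounts on GRCm38, per the submitters' processing notes. For the aligner, the featureCounts version, the strand setting and the handling of reads that fit several genes, nothing is given in the sources used here, and values of near copies and of genes overlapping on opposite strands are therefore uncertain. Libraries were directional, with 150-base paired reads, per the labels' protocols. Gene names came from GENCODE M21 (97.3% of identifiers).

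MI and sham libraries of a day were compared by edgeR 4.0.16 in R 4.3.3 (quasi-likelihood test, robust, TMM factors, filterByExpr with a minimum count of 10 and total of 15). The 10 libraries of that day entered the fit. The other 7 comparisons used 1 fit of all 30 libraries. P-values were adjusted by Benjamini-Hochberg over the 14410 to 15537 genes tested, and a gene was called at an adjusted p under 0.05. Fits were tested on simulated data. Exact permutation tests used scipy 1.17.1. Alternatives were DESeq2 1.42.0, voom in limma 3.58.1 with sample weights, median-ratio factors, other filters, a test against a 1.5-fold change, the replicate number as a block, other libraries in the fit, and leaving out replicates or libraries with lung or muscle transcripts. Near copies were found with blastn 2.17.0 on coding sequences (at least 80% identity over 50%) in place of the protein identity planned, since no protein table was used here.

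The 10 genes and the lists beside them were chosen with earlier results of these data known. From each list the 3 tested genes of highest mean CPM and the 2 called genes with the largest change at day 4 could be named. Arg2, Ly6g, Camp and Ear2 were named after their values were seen.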

Additional observations from a re-analysis of the deposited data

Results flagged for a closer look

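In 6 of the 60 groups of 5 values, 1 library lay far from the nearest other relative to the range of its group (gap over range above 0.71). That limit is passed in about 1 in 20 groups of normally distributed values. CPM was used without a log and is skewed, so that this rate does not apply to these groups. Chil3 accounted for 3 of them. MI day 4 replicate 4 read 86.6 CPM of Chil3, sham day 7 replicate 2 read 7.85 CPM and MI day 7 replicate 2 read 227 CPM. Both day 7 libraries held lung transcripts. MI day 4 replicate 4 had the highest neutrophil sum of its group (289 CPM) and also the highest Arg1 (271 CPM). Plac8 read 33.1 CPM in MI day 2 replicate 3, against at most 17.9 CPM in the other 4. Ms4a6d read 15.5 CPM in sham day 2 replicate 2 and 8.41 CPM in sham day 7 replicate 2, the libraries of those groups that were also the highest for most of the other genes.

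The MI effect differed between days 2 and 7 for F10, by -1.76 on the log2 scale, and for Ms4a6d, by 1.19, in tests of the difference itself. The day 2 libraries carry another number prefix, so that day and prefix cannot be told apart here.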

How the results depend on the processing

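Of 600 values of MI against sham under the alternatives, 560 kept their direction and call, and 37 kept the direction but lost the call. The other 3 were Ly6c2 counted together with Ly6c1, at log2 -0.21, -0.17 and -0.13 at days 2, 4 and 7. Ly6c1 reads 38.4 CPM or more and Ly6c2 at most 6.64 CPM, so that this sum follows Ly6c1 by construction and says nothing of Ly6c2. At day 7 the libraries without lung transcripts left 6 calls, with fewer samples. Fitted without a filter on low counts, Chil3 and Ly6c2 lost their day 7 calls (edgeR adjusted p = 0.0662 and 0.0582), and against a 1.5-fold change Ly6c2 and Ifitm6 lost theirs at day 4 (0.0748 and 0.219).

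For the other comparisons the number of the 10 genes called moved as follows, and the cause was not tested. The share of all genes called under each alternative is not given here. These counts therefore do not show whether the 10 moved otherwise than genes at large. The same holds for the counts above with DESeq2, with limma voom and without the lung libraries. The difference in MI effect between days 2 and 4 gave 1 call with DESeq2, 2 with limma voom, 3 with only the 4 groups in the fit, and 0 to 1 with a replicate left out. That between days 2 and 7 gave 3 with DESeq2, 5 with limma voom, 1 without a filter, 0 against a 1.5-fold change, 4 with the replicate block, and 1 to 4 with a replicate left out. MI day 4 against MI day 2 gave 4 with DESeq2, 6 with limma voom and 6 with only the 2 groups in the fit (Chil3 lower in both), 2 without a filter, 1 against a 1.5-fold change, and 2 to 5 with a replicate left out. MI day 7 against MI day 4 gave 3 with DESeq2, 5 with limma voom, 0 against a 1.5-fold change, 1 with only the 2 groups in the fit, and 2 to 4 with a replicate left out. Sham day 4 against sham day 2 gave 0 against a 1.5-fold change, 2 with only the 2 groups in the fit and 0 without the lung libraries, and sham day 7 against sham day 4 gave 1 with DESeq2.

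Relative to the macrophage and leukocyte genes, the calls at day 4 became 5 with a pseudocount of 2 CPM and 1 with the median of the reference genes. Those at day 7 became 1 with a pseudocount of 0.1 CPM, 1 with the median, and 1 to 3 with a replicate left out. With the replicate block no call was possible at day 2, 4 or 7 (0 calls), since 5 pairs allow no exact permutation p below 0.0625. Same-numbered MI and sham libraries deviated together only in part (correlation -0.0236 to 0.188, -0.188 to 0.231 and -0.2 to 0.25 at days 2, 4 and 7), and 2, 1 and 1 of the 5 MI libraries were closest to their own number, so the numbers were not taken as pairs. With the replicate block Ly6c2 (log2 1.33, edgeR adjusted p = 0.0713) and F10 (0.99, 0.0835) were not called at day 7. Ly6c2 and Ifitm6, at 1 to 79 counts per library, were the genes most limited by depth.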
